A study of Rattus norvegicus with 4 samples.

Results

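The genes described here encode HMG and other chromatin proteins: Hmga1, Hmgb1, Hmgb2, Smarcb1, Ruvbl1, H2az1 and Nap1l1. They are 7 of the 4736 genes with a symbol of their own in the annotation of the rat array (Affymetrix Rat Genome U34), and they are measured by 14 of its 8740 probe sets, control probe sets left out. Every probe set paired by the annotation with 1 of these symbols and no other was taken. The 7 genes were chosen by their listing among genes with low values in Rat1-Omomer cells at 90 min against Rat1-control cells at 0 min. All ratios with either of these arrays are therefore given as a description and support nothing.

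The 4 conditions were profiled with 1 array each: Rat1-Omomer and Rat1-control cells at 90 min after a change to 10% serum, and the same pair of cell lines at 0 min, the end of 48 h in 0.1% serum. Rat1 is an immortalized line of rat fibroblasts. Rat1-Omomer cells carried a retrovirus for Omomer, which is Omomyc, a Myc variant that dimerizes with Myc and Max, joined to a tamoxifen-responsive estrogen receptor domain, whereas Rat1-control cells carried the control virus. All 4 cultures, controls included, received 4-OHT, the tamoxifen metabolite that switches Omomer on; the labels give it for the whole starvation and the methods only for its last hours. The titles, which name each condition once, were used to assign samples, because another label field gives Omomyc to both samples of 90 min and the control vector to both samples of 0 min. With a single array per condition there is no spread between cultures and no test of any difference. In what follows, Omomer and control cells are Rat1-Omomer and Rat1-control cells, before serum is 0 min and after serum is 90 min.

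HMG proteins are abundant non-histone proteins that bend or open DNA: Hmga1 binds the minor groove at AT-rich stretches through its AT-hooks, and Hmgb1 and Hmgb2 bind through HMG boxes with little sequence preference. The other genes act on nucleosomes. Smarcb1 is a core subunit of the SWI/SNF remodelling complex, Ruvbl1 (TIP49) is an ATPase shared by the INO80 and TIP60 complexes and a cofactor of Myc, H2az1 encodes the histone variant H2A.Z, and Nap1l1 is a chaperone that carries histones to DNA. Hmga1 and Ruvbl1 are widely described in connection with Myc, and many genes of this kind are expressed more in growing than in resting cells.

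The E-box, the site that Myc/Max dimers bind, was searched in the promoters because Omomyc acts on Myc. The RefSeq promoter windows of build GRCr8, 250 bases before to 50 bases after a start site, were found for all 7 genes. The canonical E-box CACGTG, which reads the same on both strands, was in none of the 7 windows and in 6.42% of all 33469 windows. Its variant CACGCG, searched on both strands after the windows had been read, was in 4 of the 7, and in 8.50% of all windows. The 7 windows are rich in G and C, from 55.7% to 74.0% against a median of 51.7% over all windows. Of the 11410 windows within that range, 17.9% held the variant and 9.97% the canonical form. A match is a description of letters and not a binding site. The 4 stretches with the variant, with 30 bases on each side, are shown to place the letters relative to the start; capitals mark the 6 letters, which in Hmga1 and Ruvbl1 lie on the other strand and appear as their reverse complement.
Hmga1: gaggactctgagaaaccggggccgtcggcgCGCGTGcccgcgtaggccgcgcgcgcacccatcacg
Smarcb1: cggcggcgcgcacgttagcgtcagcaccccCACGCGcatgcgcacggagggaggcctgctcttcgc
Ruvbl1: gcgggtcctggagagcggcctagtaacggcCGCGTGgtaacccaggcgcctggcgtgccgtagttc
H2az1: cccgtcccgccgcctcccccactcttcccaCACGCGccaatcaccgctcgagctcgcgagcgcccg
These stretches lie on the + strand at chr20:5613300-5613365 for Hmga1, chr20:12740904-12740969 for Smarcb1, chr4:122489678-122489743 for Ruvbl1 and chr2:229028917-229028982 for H2az1. The first capital lies 178 bases before the start in Hmga1, 14 in Smarcb1, 46 in Ruvbl1 and 148 in H2az1. The start site used for the windows lies inside the annotated gene for Hmga1, Smarcb1, H2az1 and Nap1l1. The genes themselves span chr20:5612902-5620596 (Hmga1), chr20:12740105-12763054 (Smarcb1), chr4:122489754-122524666 (Ruvbl1) and chr2:229026464-229031411 (H2az1). Hmgb1 lies at chr12:11009236-11015941, Hmgb2 at chr16:37721374-37723950 on the - strand, and Nap1l1 at chr7:48819464-48844108; their windows held neither form.

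Values are given as average differences (MAS 4), that is by how much perfect match probes outshone their mismatch partners on average, on a linear scale that can lie below 0. The noise, estimated from all negative values, had an SD of 524. Values under 1048, which is 2 noise SDs and is called the floor here, were set to the floor before ratios were taken, a probe set under the floor on both arrays has no fold, and a fold against a value under the floor is only a lower bound. Of the 14 probe sets, 8 were above the floor on all 4 arrays and 2 on none. The Omomer after-serum array stood apart in several ways that move with the results below. Its own noise SD was 614, against 545 for control after serum, 512 for Omomer before serum and 448 for control before serum. Its 5' probe set of beta-actin read 94566, against 42284 to 45226 on the other 3 arrays. The 3' to 5' ratio, a sign of RNA integrity, was 0.98 for Gapdh and 0.92 for beta-actin on this array, against 1.11 to 1.15 and 1.02 to 1.19 on the others. Probe sets of 1 gene also differed more from each other there. The SD within a gene of log2 folds was 0.75 for Omomer after serum over control before serum, against 0.31 for control after serum and 0.29 for Omomer before serum, each over control before serum (389 genes). The part of these features in the values of the chromatin genes was not tested. Of 11 fibroblast markers, 10, such as Col1a1 and Vim, were above the floor on all 4 arrays, Pdgfrb being under it on all, while the measured markers of epithelium (4), muscle (3) and endothelium (1) were under it on all. Of the leukocyte markers, Ptprc (1040 to 1097) and Cd74 (815 to 1659) lay near the floor. RNA came from whole cultures, so that fewer cells with a transcript and less of it per cell cannot be told apart.

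Among the genes measured above the floor in both cell lines after serum, Hmga1 had the largest ratio between them. Its probe set X62875mRNA_at read 2965 in Omomer and 20262 in control cells after serum, and 6212 in Omomer and 11683 in control cells before serum. The second probe set from the same sequence, X62875mRNA_g_at, read 1401 in Omomer and 10904 in control cells after serum, and 3125 in Omomer and 4664 in control cells before serum. Both probe sets thus gave 1 order of the 4 arrays, with control after serum highest and Omomer after serum lowest.

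At 90 min Hmga1 was 6.83-fold and 7.78-fold lower in Omomer than in control cells by these probe sets. When 2 noise SDs are taken from the higher value and added to the lower one, 4.79-fold and 4.02-fold are left. Serum went with opposite directions in the 2 cell lines. Against the same cells before serum, Hmga1 was 2.10-fold and 2.23-fold lower in Omomer cells after serum, and 1.73-fold and 2.34-fold higher in control cells after serum. The values in control cells were above the folds of 91.9% and 96.3% of the 3985 probe sets with a fold in that comparison. With the noise taken off, the fall in Omomer cells was 1.29-fold by the first probe set, and nothing was left by the second (0.85). The rise in control cells was then 1.51-fold and 1.73-fold. Before serum the ratio was smaller, as Hmga1 was 1.88-fold and 1.49-fold lower in Omomer than in control cells; the log2 values, -0.91 and -0.58, compare with a 5th percentile of -0.66 over all probe sets. Less the noise, 1.46-fold is left for the first, and nothing for the second.

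**Figure D1:**
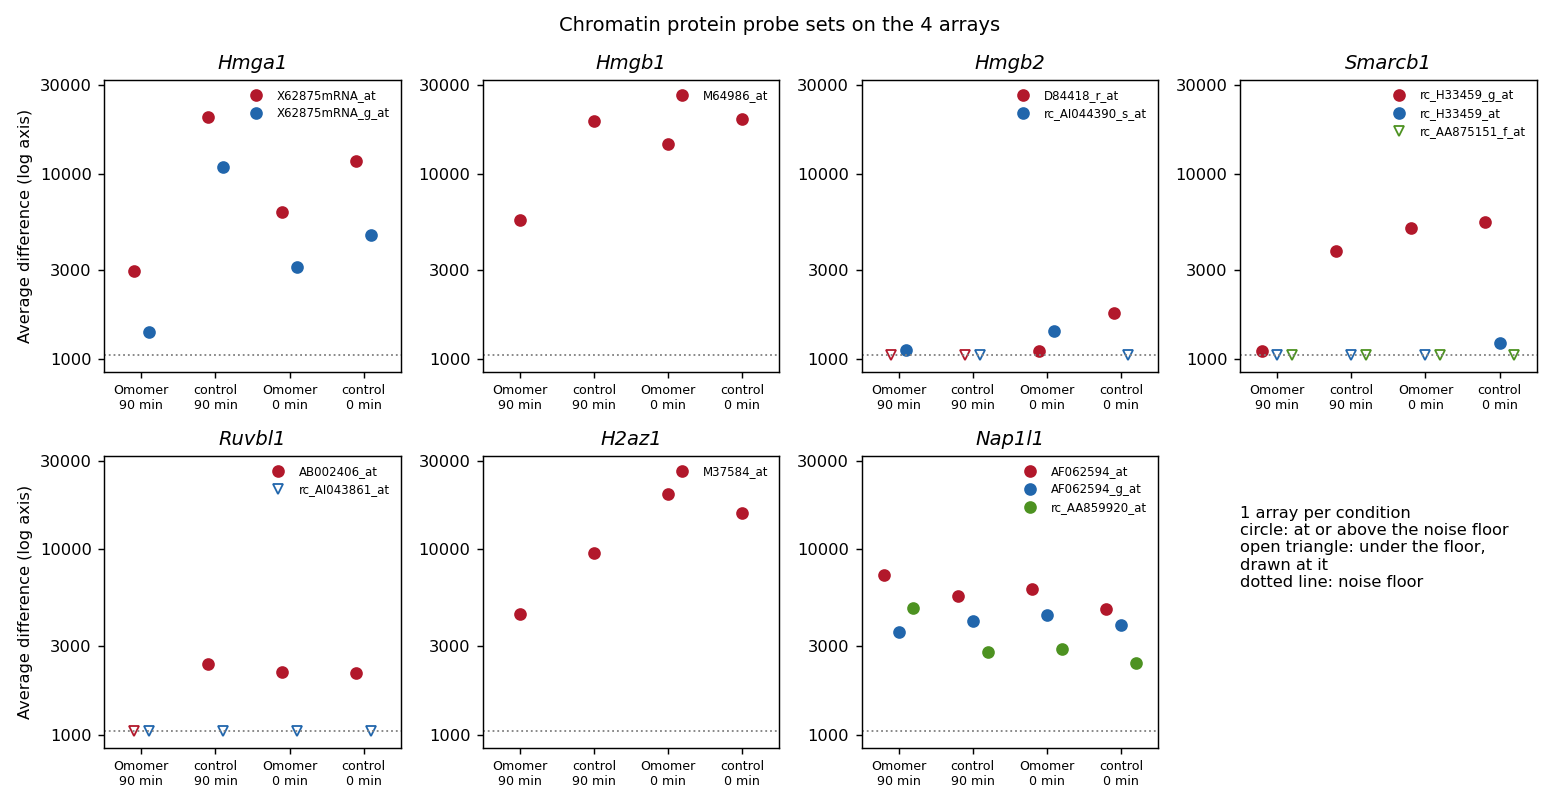
Average difference (log axis) of every probe set of the 7 genes in Rat1-Omomer and Rat1-control cells at 90 min and at 0 min, 1 array per condition; circles lie above the noise floor (dotted line, 1048) and open triangles mark values under it, drawn at the floor. Hmga1, Hmgb1, Smarcb1 and H2az1 were lowest in Rat1-Omomer cells at 90 min, Ruvbl1 was under the floor there, and the values of Nap1l1 stayed within 1.99-fold.

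To see how often the pattern of Hmga1 occurred, probe sets at least 1.5-fold higher in control cells after serum than before serum, and at least 3-fold lower in Omomer than in control cells after serum, were counted. They were 67 of 3701 probe sets with both folds (1.81%), and both probe sets of Hmga1 were among them, as the only ones of the 14. The pattern was taken from the values of Hmga1, so its probe sets meet it by construction and the share is only a description. In the direct comparison after serum, the fold of X62875mRNA_at had rank 58 from the lowest among 4048. Of the 67, 38 belonged to 5 series of expressed sequence tag (EST) probe sets, named rc_AA79, rc_AA80, rc_AA85, rc_AA87 and rc_AA89; these hold 1744 of the 8740 probe sets. Hmga1 is measured outside them, and the part of these series in the pattern was not tested.

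Hmgb1, which bends DNA and also acts as an inflammatory signal when released, was lower in Omomer cells after serum, while control cells read much the same before and after it. Its probe set M64986_at read 5589 in Omomer and 19254 in control cells after serum, and 14403 in Omomer and 19741 in control cells before serum. The 2 values of control cells were within 1.03-fold of each other, and the Omomer value after serum stood below all others. At 90 min Hmgb1 was 3.44-fold lower in Omomer than in control cells, or 2.74-fold less the noise. At 0 min it was 1.37-fold lower in Omomer cells, and 9.96% of probe sets had a lower fold in that comparison. A second probe set from the same sequence, M64986_g_at, is paired by the annotation with Hmgb1 and 2 similar loci, Hmgb1-ps33 and Hmgb1l5, and so cannot be assigned to 1 gene. It read 1478 in Omomer and 7076 in control cells after serum, and 6864 in Omomer and 7499 in control cells before serum, with the low value again on the Omomer after-serum array alone.

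The probe sets around Hmgb2, the HMG box protein most typical of dividing cells, did not go 1 way. Those of Hmgb2 alone lay close to the noise: D84418_r_at read 936 in Omomer and 874 in control cells after serum, and 1098 in Omomer and 1775 in control cells before serum. The other, rc_AI044390_s_at, read 1120 and 401 in Omomer and control cells after serum, and 1415 and 658 before serum. None of these values reaches 4 noise SDs, and no order of the conditions can be read from them.

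Another 3 probe sets are paired with Hmgb2 together with Hmgb2l1, Hmgb2l2 and Hmgb2-ps6, near copies that they cannot separate, and they disagreed on the Omomer after-serum array. D84418_s_at read 2141 in Omomer and 3333 in control cells after serum, and 5944 in Omomer and 6399 in control cells before serum. By contrast, rc_AA996401_s_at read 8051 in Omomer and 3297 in control cells after serum, and 7462 in Omomer and 7890 in control cells before serum. Likewise, rc_AI008836_s_at read 12515 in Omomer and 6863 in control cells after serum, and 11334 in Omomer and 11368 in control cells before serum. In control cells the 3 went together, and were 1.92-fold, 2.39-fold and 1.66-fold lower after serum than before serum. In Omomer cells after serum, against the same cells before serum, the first was 2.78-fold lower, whereas the others were 1.08-fold and 1.10-fold higher. Relative to control cells after serum, Omomer cells were 1.56-fold lower by the first and 2.44-fold and 1.82-fold higher by the others, so that a direction for this group of loci depends on the probe set.

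**Figure D2:**
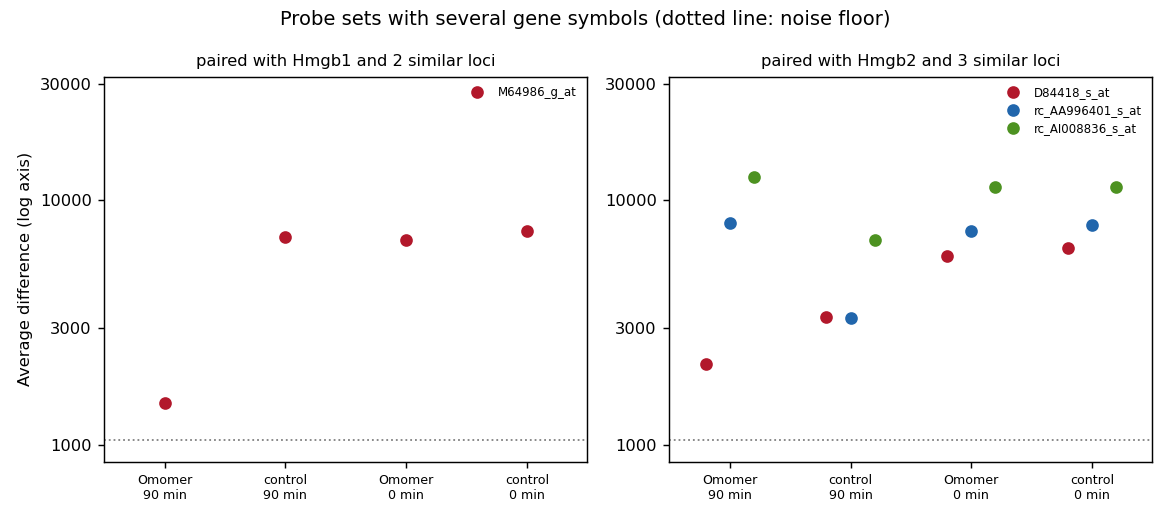
Average difference (log axis) of the probe sets paired with Hmgb1 (left) or Hmgb2 (right) and with similar loci, in Rat1-Omomer and Rat1-control cells at 90 min and at 0 min, 1 array per condition; the dotted line is the noise floor of 1048. In the right panel the 3 probe sets read 2141, 8051 and 12515 in Rat1-Omomer cells at 90 min, against 3333, 3297 and 6863 in Rat1-control cells at 90 min.

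Smarcb1, the SWI/SNF subunit, had 1 probe set above the floor on all arrays. This one, rc_H33459_g_at, read 1102 in Omomer and 3834 in control cells after serum, and 5100 in Omomer and 5504 in control cells before serum. It was thus 3.48-fold lower in Omomer than in control cells after serum, or 1.30-fold less the noise. The value of 1102 is under 1228, the floor that the noise of this array alone would give. By that floor, folds with this value would be lower bounds only. With serum the probe set was 4.63-fold lower in Omomer cells and 1.44-fold lower in control cells, each after serum against 0 min of the same cells. Less the noise, 1.88-fold is left in Omomer cells and nothing in control cells (0.91). The partner probe set from the same tag, rc_H33459_at, read 146 in Omomer and 469 in control cells after serum. Before serum it read 1003 in Omomer and 1212 in control cells. Only the last value is above the floor, so that no order of the conditions can be read from this probe set. The third, rc_AA875151_f_at, was between -269 and 47 on the 4 arrays and carried no signal.

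Ruvbl1, the ATPase TIP49, read much the same on 3 arrays and was under the floor on the fourth. Its probe set AB002406_at read 440 in Omomer and 2420 in control cells after serum, and 2179 in Omomer and 2157 in control cells before serum. Serum made little difference in control cells, which were 1.12-fold higher after serum. Omomer cells after serum were at least 2.31-fold lower than control cells after serum, but with noise on both values no fold is left (0.92). The other probe set, rc_AI043861_at, was between -755 and 52.

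H2az1, the gene of histone H2A.Z, was lower after serum in both cell lines. Its probe set M37584_at read 4465 in Omomer and 9536 in control cells after serum, and 19829 in Omomer and 15649 in control cells before serum. Compared with the same cells before serum, it was 4.44-fold lower in Omomer cells and 1.64-fold lower in control cells after serum, or 3.41-fold and 1.38-fold less the noise. At 0 min it was 1.27-fold higher in Omomer than in control cells, the opposite of Hmga1 and Hmgb1. Against control cells after serum the Omomer value was 2.14-fold lower, which misses 3-fold.

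Nap1l1, the histone chaperone, was 3-fold lower in Omomer cells by none of the probe sets of its name. AF062594_at read 7248 in Omomer and 5641 in control cells after serum, and 6091 in Omomer and 4755 in control cells before serum. AF062594_g_at, from the same sequence, read 3606 and 4118 in Omomer and control cells after serum, and 4404 and 3913 before serum. The third, rc_AA859920_at, read 4837 and 2785 in Omomer and control cells after serum, and 2889 and 2435 before serum. The last had its highest value in Omomer cells after serum and belongs to the EST series rc_AA85. Of the 3, no pair of conditions differed by over 1.99-fold. Another probe set, rc_AA866472_at, carries the name Nap1l1 in a supplementary gene list but no gene in the platform annotation used here. It read 398 in Omomer and 1487 in control cells after serum, and 1912 in Omomer and 1450 in control cells before serum, so that all its values lie under 4 noise SDs.

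Counted over the probe sets, 5 of the 12 with a fold were at least 3-fold lower in Omomer cells after serum than in control cells before serum, and none was at least 3-fold higher; over the array 9.95% of 4220 probe sets were that much lower and 2.8% higher. These 5 measure Hmga1 (2), Hmgb1, Smarcb1 and H2az1, and the genes were picked in this comparison. The weakest of them was X62875mRNA_g_at of Hmga1 at 3.33-fold, and next outside was Ruvbl1 at no less than 2.06-fold. In the direct comparison after serum, Omomer cells were at least 3-fold lower than control cells by 4 of 10 probe sets (2 of Hmga1, and those of Hmgb1 and Smarcb1), beside 8.57% lower and 2.22% higher over the array. Against Omomer cells before serum, it was 2 of 11 (Smarcb1 and H2az1), beside 9.65% lower and 2.9% higher. These 3 comparisons share the Omomer after-serum array.

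No probe set of the 7 genes reached 3-fold where that array was not involved. Few probe sets over the array did so either, so that these counts of 0 are not particular to the 7 genes. In control cells after serum against 0 min, 0 of 11 reached 3-fold in either direction, with 1.81% lower and 1.93% higher over the array. Their log2 folds lay between -0.76 (Hmgb2, D84418_r_at) and 1.23 (Hmga1, X62875mRNA_g_at), with 6 above and 5 below 0. In Omomer against control cells before serum, 0 of 12 were past 3-fold in either direction, with 0.503% lower and 0.251% higher over the array. Here the log2 folds lay between -0.91 (Hmga1, X62875mRNA_at) and 0.43 (Hmgb2, rc_AI044390_s_at), with 6 on each side of 0. Both comparisons share the control before-serum array, which was the reference when the genes were chosen.

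The design allows the serum response of Omomer cells to be set against that of control cells without a common array. The Omomer response holds the Omomer after-serum array and the control response the control before-serum array, both used in choosing the genes. The difference between responses is therefore a description too. The difference, on the log2 scale, was -1.86 and -2.38 for the probe sets of Hmga1, -1.69 for Smarcb1 (rc_H33459_g_at), -1.44 for H2az1 and -1.33 for Hmgb1. For Ruvbl1 it was -1.22 with the low value at the floor. It was near 0 or above for Nap1l1, at 0.00, -0.36 and 0.55. No difference is given for Hmgb2, whose values after serum were under the floor in one or both cell lines. The response of Omomer cells was thus lower by over 1 log2 unit for Hmga1, Hmgb1, Smarcb1, Ruvbl1 and H2az1, and by none of the 3 probe sets for Nap1l1. With a floor of 4 noise SDs it was -0.22 for Ruvbl1 and -0.76 for Smarcb1. With the SD within a gene of 0.73 for Omomer and 0.31 for control cells, each after serum over its own 0 min, the differences of Nap1l1 lie within the spread between probe sets. This spread is not one between cultures, and lying past it does not set the other genes apart.

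**Figure D3:**
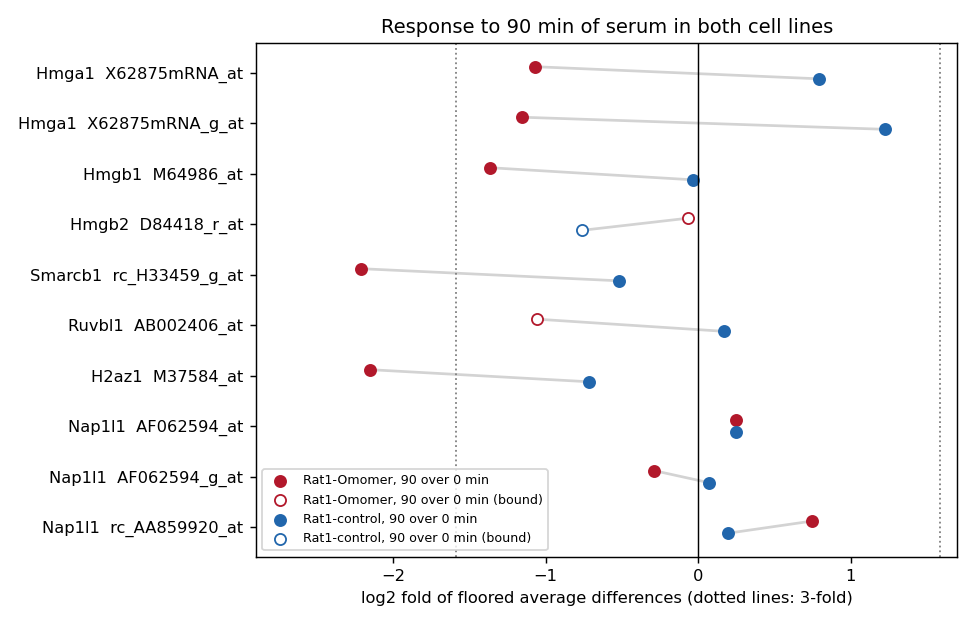
The log2 fold of 90 min over 0 min of serum in Rat1-Omomer (red) and Rat1-control cells (blue) for each probe set of the 7 genes with both folds, 1 array per condition; open symbols are bounds against the noise floor, dotted lines mark 3-fold. Red minus blue lies between -2.38 and -1.22 for Hmga1, Hmgb1, Smarcb1, Ruvbl1 and H2az1, and between -0.36 and 0.55 for Nap1l1; the points of Hmgb2 are set by the floor.

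Myc itself, by its probe set Y00396mRNA_g_at on the same arrays, read 7233 in Omomer and 4980 in control cells after serum. Before serum it read 2307 in Omomer and 1172 in control cells. By this probe set Myc was higher after serum in both cell lines, though 1172 is close to the floor. The other, Y00396mRNA_at, read 159 in Omomer and 1171 in control cells after serum, and 534 in Omomer and 222 in control cells before serum. Of these values only 1171 is above the floor, so that this probe set gives no direction in Omomer cells. Outside the 7 genes, the profile over the 4 arrays nearest to their median profile (1 probe set per gene, log2, centred on each probe set's own mean) was that of Cfd, complement factor D, then of Ctsd, a lysosomal protease, and Ptgfrn, a membrane protein. Their Euclidean distances were 0.20, 0.23 and 0.27, over 4 arrays and among 2112 probe sets. Ctsd read 4092 in Omomer and 11061 in control cells after serum, and 11748 in Omomer and 15217 in control cells before serum.

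Other chromatin genes were described in 5 lists, of HMG proteins, histones, histone chaperones, remodelling complexes, and histone and DNA modifiers and readers. Without the 7 genes, they hold 41 genes measured by 49 probe sets. At 90 min Omomer cells were at least 3-fold lower than control cells before serum by 4 of the 37 with a fold, a share near the 9.95% of the array, and at least 3-fold higher by none. The median log2 fold was -0.38, against 0.10 over all probe sets, but -0.04 with a floor of 4 noise SDs and 0.05 over those whose values pass the floor on both arrays, so that no direction can be given for the lists. In control cells after serum the median was -0.44, against -0.07 over all. There, 3 of 36 were lower and 1 higher by 3-fold or more, beside 1.81% lower and 1.93% higher over the array. The number lower was 0 over those whose values pass the floor on both arrays. In the direct comparison after serum the median of 28 was 0.27, against 0.18 over all. By 3-fold or more, 2 were lower and 2 higher in Omomer cells, beside 8.57% lower and 2.22% higher over the array.

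The 4 lower probe sets measure Sin3b, Sirt2, Nap1l4 and Hist4h4. Sin3b, a scaffold of histone deacetylase complexes, read 1262 in Omomer and 5398 in control cells after serum, and 5474 in Omomer and 6010 in control cells before serum. Only the first value stands apart, which is the pattern of Smarcb1. Sirt2, a deacetylase, read 347 and 2402 in Omomer and control cells after serum, and 3978 and 4543 before serum. Nap1l4, a relative of Nap1l1, read 424 and 2652 in Omomer and control cells after serum, and 3765 and 3299 before serum by rc_AA799449_g_at. The histone H4 gene Hist4h4 differed from these, with 263 and 733 in Omomer and control cells after serum, and 1191 and 4188 before serum, being high only in control cells before serum. Sirt2, Nap1l4 and Hist4h4 are measured in the 5 EST series and Sin3b outside them.

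The partners of the 7 genes in their complexes gave weak signals. Smarca4, an ATPase of SWI/SNF, read 954 in Omomer and 625 in control cells after serum, and 1122 in Omomer and 1579 in control cells before serum. Kat5 (TIP60), the acetyltransferase of the complex that holds Ruvbl1, read 58 and 1320 in Omomer and control cells after serum, and 1504 and 1463 before serum. Trrap, a scaffold of that complex, read 109 and 1045 in Omomer and control cells after serum, and 1854 and 1770 before serum. Trrap was thus under the floor after serum in both cell lines, and Kat5 in Omomer cells alone. Of the other SWI/SNF subunits, Smarcd2 read 158 in Omomer and 101 in control cells after serum, and 1217 in Omomer and 1614 in control cells before serum, and Smarca2 was under the floor on all arrays. None of these 5 genes reached 4 noise SDs in any condition, and Kat5, Trrap and Smarca2 are measured in the 5 EST series. Of the other histones, the 4 with a fold between Omomer and control cells after serum had values above those of control cells (median log2 fold 0.55), but 2 of them are bounds, and less the noise no fold is left for any of the 4 (0.24 to 0.95). H2az1 had a log2 fold of -1.09 in this comparison.

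**Figure D4:**
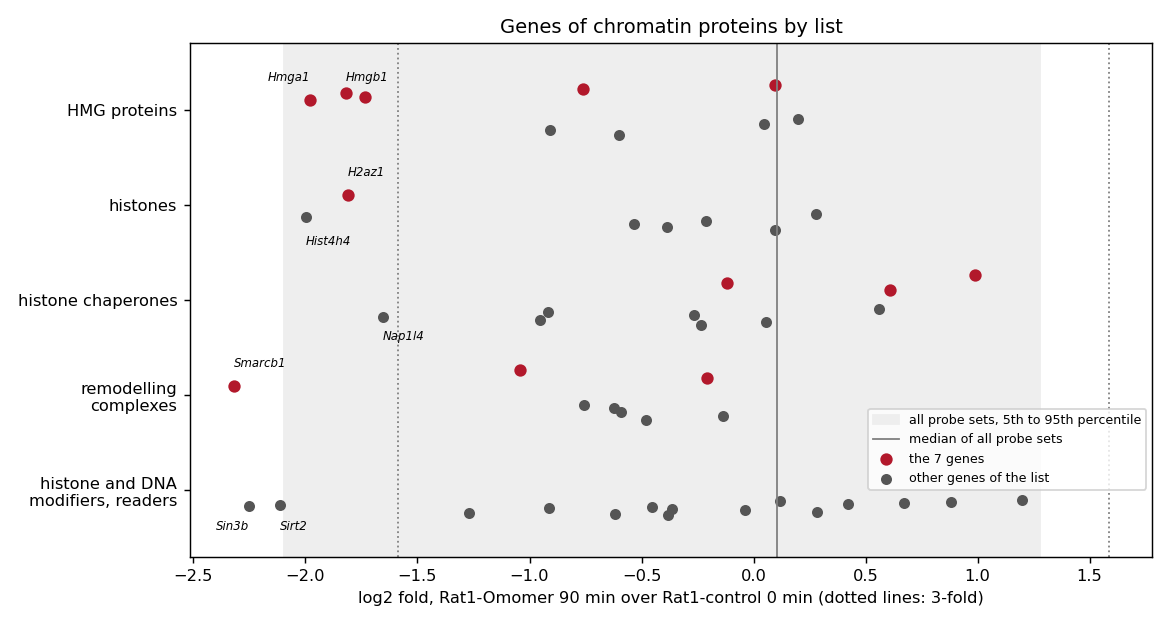
Log2 fold of Rat1-Omomer cells at 90 min over Rat1-control cells at 0 min for the probe sets of 5 chromatin gene lists, the 7 genes in red and the other genes in grey, 1 array per condition; the shaded band holds the middle 90% of all probe sets and dotted lines mark 3-fold. Red points past 3-fold are Hmga1, Hmgb1, H2az1 and Smarcb1, and grey ones Hist4h4, Nap1l4, Sin3b and Sirt2; no point is past 3-fold on the right.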

How the data were processed

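Biotin-labelled cRNA made from total RNA was hybridized to Affymetrix Rat Genome U34 arrays, 1 for each of 4 conditions. The intensity values, deposited on a linear scale, are average differences that the authors computed with MAS 4 at default settings; negative values were kept. Conditions had no replicate, and with 4 arrays precision is limited.

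The 59 control probe sets were left out of counts. The noise SD was the median size of the negative values of all arrays, scaled as for a normal distribution, the floor was 2 noise SDs, and folds were ratios of floored values with the 3-fold threshold of the methods, in 5 comparisons. Symbols came from the platform annotation table: of the 8740 probe sets, 7006 had 1 symbol, 308 several and 1426 none. Coordinates and promoters are RefSeq's for GRCr8. The 7 genes, the gene lists and the comparisons were chosen with earlier results of these data known. Text names follow a rule: all probe sets of the 7 genes, list members past 3-fold, the 3 nearest profiles, Myc, and control probe sets. Those sharing symbols, Smarca2, Smarca4, Smarcd2, Kat5, Trrap, and the genes under other observations were added after their values were seen. The fold calculation was checked on simulated data, with changes set only in bright probe sets. The scatter set there was less than that between probe sets on the Omomer after-serum array. The check therefore does not cover values near the floor. Alternatives were other floors, median scaling, quantile normalization, the difference form of the fold, 1 probe set per gene, a floor passed on both arrays, and leaving out the 5 EST series. Python 3.11.15, numpy 2.4.6, pandas 2.3.3 and matplotlib 3.10.9 were used.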

Additional observations from a re-analysis of the deposited data

Results flagged for a closer look

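For 4 probe sets of the 7 genes, serum went with a lower value in Omomer cells and with a higher value in control cells, each after serum against its own 0 min. With 1 array per condition the difference was not tested. The log2 response in Omomer minus that in control cells was -1.86 for X62875mRNA_at and -2.38 for X62875mRNA_g_at of Hmga1. Less the noise, no fall in Omomer cells is left for X62875mRNA_g_at (0.85) and 1.29-fold for X62875mRNA_at. The difference was -1.22 for AB002406_at of Ruvbl1, where the Omomer value after serum is under the floor. It was -0.36 for AF062594_g_at of Nap1l1, less than the SD of 0.73 between probe sets of 1 gene in Omomer cells.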

How the results depend on the processing

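No paired analysis was possible because each condition has 1 array. Of the 5 probe sets of the 7 genes at least 3-fold lower in Omomer cells after serum than in control cells before serum, 3 were left with a floor of 4 noise SDs; against Omomer cells before serum 1 of 2 was left. Ruvbl1 moved with the floor: its log2 fold against control cells after serum, -1.21, was -2.21 at 1 noise SD and -0.21 at 4. Smarcb1 (rc_H33459_g_at) moved to -0.87, with -1.80 before, at 4 noise SDs. Median scaling and quantile normalization kept every fold of the 7 genes within the spread between probe sets. A floor for each array did so for every fold that it left. Folds lost under a setting, with both values under its floor, were not counted. In all, 305 of 321 alternative folds stayed within the spread, 16 did not and none of those past 3-fold changed sign. Of 58 differences between serum responses, 3 did not stay within it (Ruvbl1, -2.22 at 1 noise SD and -0.22 at 4, and Smarcb1, -0.76 at 4). For the other chromatin genes, the 4 lower probe sets in Omomer cells after serum against control cells before serum were 0 at 4 noise SDs, 1 above the floor on both arrays and 1 without the 5 EST series, and 1 probe set was higher at 1 noise SD. Their median log2 fold, -0.38, was -0.04 at 4 noise SDs and 0.05 above the floor on both arrays; against Omomer cells before serum, -0.18 was 0.10 above the floor on both arrays. In the direct comparison, the 2 lower were 4 at 1 noise SD, 0 at 4 noise SDs and 1 after quantile normalization, and the 2 higher were 4 at 1 noise SD, 1 at 4 noise SDs, 1 with 1 probe set per gene and 0 above the floor on both arrays. Against Omomer cells before serum, the 3 lower were 5 at 1 noise SD, 0 at 4, 1 above the floor on both arrays and 1 without the EST series. In control cells after serum, the 3 lower were 7 at 1 noise SD, 0 at 4 and 0 above the floor on both arrays, and the 1 higher was 0 at 4 noise SDs. The 1 lower in Omomer cells before serum was 0 at 4 noise SDs and 0 without the EST series. The cause was not tested beyond what each setting removes.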

Other observations

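Some other chromatin genes, chosen after their values were seen, differed with serum in control cells and less so, or the other way, in Omomer cells. Hbp1, an HMG-box repressor of cell cycle genes, read 3702 in Omomer and 817 in control cells after serum, and 4660 in Omomer and 5615 in control cells before serum. The value of 817 is under the floor, and less the noise 1.42-fold is left between the cell lines after serum. Top2a, the topoisomerase of dividing cells, read 6396 in Omomer and 865 in control cells after serum, and 4688 in Omomer and 3474 in control cells before serum by Z19552cds_at. Here the value of 865 is under the floor, and 2.80-fold is left less the noise. By rc_AA899854_at, Top2a read 8937 in Omomer and 4615 in control cells after serum, and 11516 in Omomer and 8234 in control cells before serum. By D14045_s_at, Top2a read 2664 in Omomer and 792 in control cells after serum. Before serum this probe set read 2506 in Omomer and 1674 in control cells. Its value of 792 is under the floor, and less the noise no fold between the cell lines is left (0.88). Ehmt2, a methyltransferase of histone H3 lysine 9, read 8041 in Omomer and 2979 in control cells after serum, and 6947 in Omomer and 6610 in control cells before serum. In the other direction, Anp32a, an inhibitor of histone acetylation, read 1643 in Omomer and 5150 in control cells after serum, and 1426 in Omomer and 1579 in control cells before serum by rc_AI070967_at. The other probe sets of Anp32a give no direction. D32209_at read -60 in Omomer and 223 in control cells after serum, both under the floor. Before serum it read 1050 in Omomer and 1233 in control cells, close to the floor. The third, rc_AA893496_at, was under the floor on all arrays. These values have no replicate, and no difference was tested.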
